A study of Arabidopsis thaliana with 12 samples.

Results

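The transcripts described here come from the plastid genome of Arabidopsis thaliana, measured by RNA sequencing in roots. The members are the rows of the deposited count table whose locus identifier starts with ATCG and whose counts over all 12 libraries sum to at least 20. This rule kept 85 of 133 plastid rows, out of 33602 loci in the table. Of the plastid rows left out, 26 held no count in any library and 22 held between 1 and 19 counts in all. The members just inside the limit were ATCG00950 with 25 counts, ATCG00090 with 27 and ATCG00210 with 29, and the rows just outside were ATCG01250 with 17, ATCG00400 with 16 and ATCG00870 with 15. Among the members, 70 had a count in every library, 15 were at 0 in at least 1 library, and the median sum was 3725.

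Seedlings of accession Col-0 and of the mutant myb36-1 in MYB36, whose protein activates genes of the Casparian strip in the endodermis, grew for 6 days in long days on agar medium with sucrose. Roots were either frozen whole or digested to protoplasts, from which endodermal cells were sorted by fluorescence (FACS). Each genotype thus has a sorted group and a whole-root group of 3 libraries labelled as biological replicates, and the mutation is the only allele that the labels name. No label gives the sorting reporter, the kind of lesion in myb36-1 or the number of plants behind a library. In bulk samples, fewer cells of a type, fewer plastids per cell and less RNA per plastid cannot be told apart.

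The plastid genome of a plant encodes core subunits of both photosystems, the cytochrome b6f complex, the ATP synthase and an NADH dehydrogenase-like complex, along with ribosomal proteins, ribosomal and transfer RNAs, subunits of a bacterial-type RNA polymerase and a few proteins such as a Clp protease subunit. Its genes are read by phage-type polymerases and by the plastid-encoded polymerase, which takes its promoter specificity from nuclear-encoded sigma factors and is surrounded by nuclear-encoded associated proteins. Root plastids are mostly non-photosynthetic, and the photosynthesis genes of the nucleus are weakly expressed there under usual conditions.

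Libraries held 7280556 to 24274637 counts, and the myb36-1 sorted libraries were the shallowest, at 7280556 to 13427477. The level of MYB36 in CPM (counts per 1000000 counts of all loci) was 127, 167 and 249 in wild-type sorted endodermis against 81.9, 193 and 95.5 in the mutant, so the groups overlapped and the level of this gene does not check the label in sorted cells. In whole roots it was 32.9 to 37.0 CPM in wild type against 17.4 to 21.1 CPM in the mutant. CASP1, a Casparian strip membrane protein, was at 607 to 1218 CPM in wild-type sorted endodermis and at 53.8 to 108 in the mutant, and endodermis markers summed to more in either sorted group than in whole roots of the same genotype. Sorted libraries of the 2 genotypes also differed in markers of other cell types. All 4 root cap markers were called lower in the mutant, from 95.4 to 130 CPM summed in wild type to 1.90 to 4.81, and 3 of 4 root hair and epidermis markers were called lower, from 109 to 125 CPM summed to 25.99 to 39.8. Of the endodermis markers 3 of 4 were called lower and 1 higher, with sums of 1336 to 2174 CPM in wild type and 759 to 1213 in the mutant. The cortex marker that was tested was called higher, and both cortex markers summed to 0.305 to 1.03 CPM in wild type and 6.18 to 15.4 in the mutant. Over all loci tested, 15.6% were called higher and 12.9% lower. Of the phloem and xylem markers 1 of 2 each was tested, and of stele and pericycle markers 3 of 3, with 0 calls. None of these markers was at 0 in every library. Their part in the results on plastid transcripts was not tested. The myb36-1 sorted libraries also resembled each other least: over all loci, pairs of them had a Spearman correlation of 0.889 to 0.915, against 0.978 to 0.994 for pairs within the other groups.

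For most plastid rows the identifiers carry no gene name in the sources used here, and such rows are given by identifier alone. Notes in the reference annotation name 6 members: ATCG00670 as clpP, a subunit of the Clp protease, ATCG00660 as ribosomal protein L20, ATCG00750 as ribosomal protein S11, ATCG01310 as ribosomal protein L2, ATCG00530 as a CemA-like proton extrusion protein, and ATCG00430 as photosystem II reaction center protein G. The authors' deposited tables of pooled FPKM (fragments scaled by transcript length and library size) hold gene names with plastid coordinates, and these give the named view further below. Their unit PSBG has the start and end of the reference gene ndhK, a gene of the NADH dehydrogenase-like complex. The photosystem II name of ATCG00430 is therefore the wording of the note only.

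Some plastid genes lie in a repeated region and have an identical second copy: 15 sequences of the TAIR10.1 reference plastid genome, among them rpl2, rps7, ndhB, ycf2 and the ribosomal RNAs, occur as pairs of identical genes. The first 60 bases of both copies of rpl2, the gene of ribosomal protein L2, are shown because a short read from this gene matches both places. They are Pt:85784-85843 on the minus strand and Pt:152806-152865 on the plus strand, and no base is capitalised since the copies are the same.

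rpl2 copy 1: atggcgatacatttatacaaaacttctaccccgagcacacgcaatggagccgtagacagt
rpl2 copy 2: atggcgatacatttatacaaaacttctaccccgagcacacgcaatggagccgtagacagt

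The row ATCG01310 (ribosomal protein L2) held 178 counts over all 12 libraries, whereas the authors' deposited tables give the unit RPL2.2 an FPKM between 47.8 and 335. The sources used here do not say how reads that match both copies were counted, and values of repeated genes are uncertain.

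Upstream sequences are shown for psbA, the D1 protein of photosystem II, and for rrn16, the small ribosomal RNA. The choice rests on the authors' pooled FPKM in sorted endodermis, where psbA was lower and rrn16 higher in the mutant. The difference of psbA did not pass the test of the authors' deposited table. No count row could be named as either gene here, so neither was set against the counts. The stretches run from 180 to 81 bases before the annotated gene start, at Pt:1525-1624 on the minus strand and Pt:100832-100931 on the plus strand of TAIR10.1, and capitals mark an exact TTGACA, the consensus of the outer element of bacterial-type promoters.

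psbA: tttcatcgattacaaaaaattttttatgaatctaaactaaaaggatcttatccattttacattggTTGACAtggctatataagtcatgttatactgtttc
rrn16: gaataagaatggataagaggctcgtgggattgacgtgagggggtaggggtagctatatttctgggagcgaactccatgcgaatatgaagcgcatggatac

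Over the 127 windows of 200 bases before the plastid genes of the reference, 11.0% held TTGACA on the strand of the gene and 14.2% on either strand. The consensus inner element TATAAT, which on the same strand can share at most 1 base with a TTGACA, was present in 22.05% of windows on the strand of the gene and in 33.9% on either strand, and in neither stretch above. A match is a description of the letters and not of a site in use.

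Plastid rows together took a small share of counts in all groups. They held 8590, 5217 and 5852 CPM in wild-type sorted endodermis and 5299, 8423 and 7551 CPM in myb36-1 sorted endodermis. They held 10671, 8918 and 10600 CPM in wild-type whole root and 10531, 8942 and 8382 CPM in myb36-1 whole root. The genotypes overlapped in both tissues, with a log2 ratio of mutant over wild type of 0.11 in sorted endodermis (exact two-sided permutation test, p = 0.9) and −0.12 in whole root (exact permutation p = 0.3). In wild type, every sorted library was below every whole-root library, with means of 6553 ± 1792 and 10063 ± 992 CPM (SD, n = 3, exact permutation p = 0.1, the smallest that 3 against 3 can give). In the mutant, the sorted and whole-root groups overlapped, at 7091 ± 1612 and 9285 ± 1115 CPM (SD, n = 3, exact permutation p = 0.2). Mitochondrial rows went the other way: they held 28402 to 42892 CPM in wild-type and 37521 to 74551 CPM in mutant sorted libraries against 11478 to 15039 CPM in whole roots. The ratio of plastid to mitochondrial counts was therefore 0.101 to 0.253 in sorted libraries and 0.557 to 0.923 in whole roots, without overlap. Tissue, protoplasting, sorting and the RNA kit differ together between sorted and whole-root samples and cannot be told apart.

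**Figure D1:**
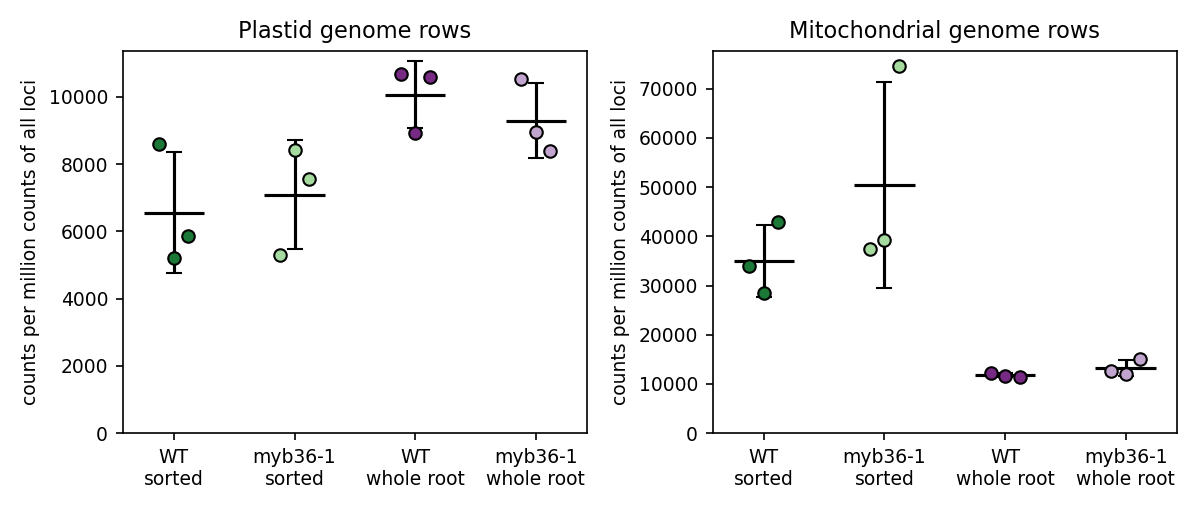
CPM over all loci for the summed plastid rows (left) and the summed mitochondrial rows (right), by group; points are libraries, horizontal lines means and bars SD over 3 libraries. Plastid totals overlap between genotypes in both tissues, and mitochondrial totals of all 6 sorted libraries lie above those of all 6 whole-root libraries.

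The composition of the plastid counts is given as the share of each row. Row shares here are shares of reads, not corrected for gene length, so they say nothing of the order of levels between genes. In wild-type sorted endodermis, ATCG00670 (clpP) and ATCG00500 each took 19.4% of all plastid counts (19.4% ± 0.506 and 19.4% ± 0.777, SD, n = 3), and ATCG00020 took 7.40% ± 1.06. In myb36-1 sorted endodermis these shares were 12.8% ± 1.64 for clpP, 12.5% ± 2.42 for ATCG00500 and 2.33% ± 0.611 for ATCG00020. In whole roots ATCG00020 was the row with the most reads in wild type, at 15.5% ± 1.54, and clpP took 12.3% ± 0.395 in wild type and 14.4% ± 0.213 in the mutant. The 10 rows with the most reads held 71.1% ± 0.567 of plastid counts in wild-type sorted endodermis, 62.2% ± 2.21 in mutant sorted endodermis, 68.1% ± 0.922 in wild-type whole root and 67.0% ± 2.70 in mutant whole root.

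In sorted endodermis, plastid rows were called higher in myb36-1 at a share not far above that of all loci, and lower at a smaller share. Of 72 members that passed the filter on low counts, 15 were called higher (20.8%) and 3 lower (4.17%), at an adjusted p under 0.05 by edgeR's quasi-likelihood test over all 18318 loci tested. The background over all loci tested was 15.6% higher and 12.9% lower. The median log2 fold change was 0.31 over the members tested and −0.05 over all loci. The 15 rises ran from 1.00 to 3.42 on the log2 scale, with a median of 1.51. They were, in rising order, ATCG00470, ATCG00480, ATCG00820, ATCG00680, ATCG00190, ATCG00490, ATCG00160, ATCG00065, ATCG00350, ATCG00730, ATCG00120, ATCG00660, ATCG00180, ATCG00280 and ATCG00140. The remaining tested members did not pass, and 13 members were not tested. With wild-type sorted replicate 2 or replicate 3 left out, 8 rows were called higher, of 73 and 74 members tested. Over all loci the higher calls fell as well, from 2857 of 18318 to 1234 of 18638 and 1546 of 18630. The number called lower was 1 without wild-type replicate 2 and 5 without mutant replicate 2. Over all loci the lower calls went from 2368 to 1002 and 2969 in these fits. The mutant sorted libraries are shallower, and after all 6 libraries were thinned to 7280556 counts the calls numbered 15 and 3 again.

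ATCG00140 showed the largest rise. It held 3.00, 1.65 and 1.298 CPM in wild-type sorted endodermis and 15.0, 26.9 and 21.2 CPM in the mutant, without overlap (log2 fold change 3.42 ± 0.42 SE, adjusted p = 0.0012, edgeR). As a share of plastid counts it was 0.0296% ± 0.00662 in wild-type sorted endodermis, 0.295% ± 0.0218 in mutant sorted endodermis, 0.304% ± 0.00544 in wild-type whole root and 0.291% ± 0.0189 in mutant whole root (SD, n = 3). Wild-type sorted endodermis thus stood apart, and the other groups lay close together for this row.

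ATCG00280 held 22.7, 9.23 and 16.5 CPM in wild-type sorted endodermis against 107, 148 and 141 in the mutant (log2 fold change 3.06 ± 0.33 SE, adjusted p = 0.00081, edgeR). In whole roots it held 278 to 382 CPM in wild type and 261 to 319 in the mutant, so its mutant sorted level lay between those of wild-type sorted cells and whole roots. ATCG00180 held 128, 59.2 and 76.5 CPM in wild-type sorted endodermis and 172, 404 and 365 in the mutant (log2 fold change 1.84 ± 0.36 SE, adjusted p = 0.0078, edgeR). These groups did not overlap, but mutant replicate 1 lay nearest to wild type. ATCG00660, ribosomal protein L20, rose from 43.9, 25.8 and 43.4 CPM to 78.3, 161 and 155 CPM (log2 fold change 1.81 ± 0.30 SE, adjusted p = 0.0042, edgeR).

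The 3 rows called lower were ATCG00020, ATCG00510 and ATCG00360. ATCG00020 held 544, 441 and 434 CPM in wild-type sorted endodermis and 158, 189 and 133 CPM in the mutant (log2 fold change −1.53 ± 0.22 SE, adjusted p = 0.0022, edgeR). ATCG00510 held 82.3, 113 and 102 CPM in wild type, against 34.2, 58.5 and 43.3 CPM in the mutant (log2 fold change −1.12 ± 0.23 SE, adjusted p = 0.0095, edgeR). ATCG00360 held 87.6, 74.9 and 65.5 CPM in wild type, against 37.6, 56.0 and 38.9 CPM in the mutant (log2 fold change −0.76 ± 0.22 SE, adjusted p = 0.031, edgeR). None of these groups overlapped. The call of ATCG00510 was lost without wild-type replicate 2 (adjusted p = 0.052, edgeR), and that of ATCG00360 in 5 of 15 alternatives (adjusted p up to 0.13).

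Other members named by the annotation did not pass in sorted endodermis. clpP held 1695, 981 and 1146 CPM in wild type against 738, 922 and 1029 in the mutant, with overlap (log2 fold change −0.48 ± 0.25 SE, adjusted p = 0.19, edgeR). The log2 fold change was −0.35 for ribosomal protein S11, 0.20 for the CemA-like row ATCG00530 and 0.42 for ATCG00430, with adjusted p from 0.53 to 0.55. ATCG01310 did not pass the filter on low counts.

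**Figure D2:**
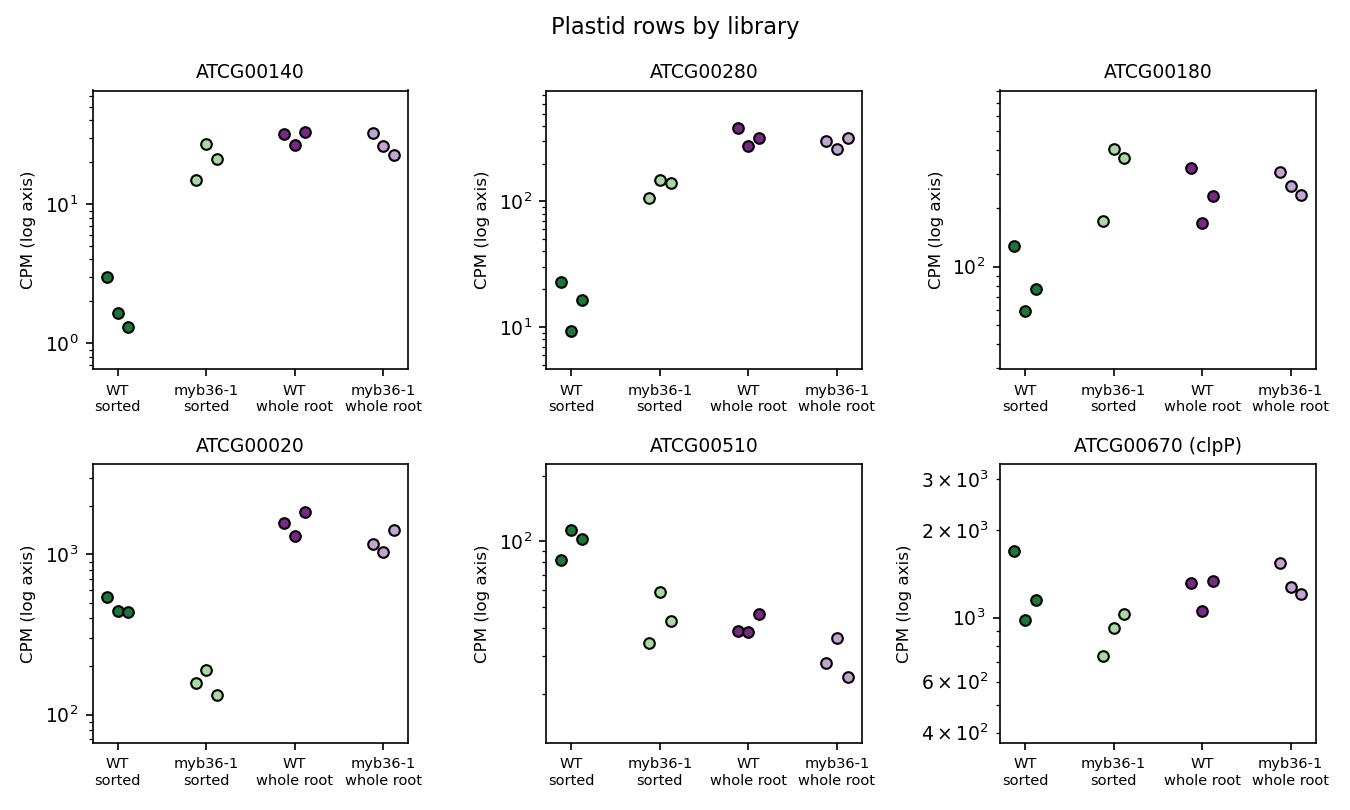
CPM over all loci (log axes) of 6 plastid rows in each library, by group; points are libraries. ATCG00140, ATCG00280 and ATCG00180 are lowest in the 3 wild-type sorted libraries, ATCG00020 is lowest in the 3 mutant sorted libraries, and clpP overlaps between the genotypes in sorted endodermis.

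When each library was scaled to its own plastid total, which asks for changes within the plastid rows, 11 members were called higher and 2 lower in the mutant sorted endodermis, against a background of 8.94% and 11.4% of all loci. This scaling moved the median of all loci from −0.05 to −0.22 on the log2 scale and that of the members from 0.31 to 0.17. On it, the log2 fold change was 3.31 for ATCG00140, 2.96 for ATCG00280, 1.71 for ATCG00180, −1.67 for ATCG00020 and −1.35 for ATCG00510, and all of these passed (adjusted p from 6.0e-05 to 0.022, edgeR). ATCG00360 did not pass on it (adjusted p = 0.082).

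In whole roots no plastid row was called between the genotypes. Of 75 members tested, 0 were called higher and 0 lower by edgeR, against a background of 3.25% and 2.85% of all loci tested. An unadjusted p under 0.05 was reached by 7 members, and DESeq2 and limma-voom also called 0. The log2 fold change was below 0 in 53 members and its median was −0.11, against 0.01 over all loci. Without wild-type whole-root replicate 1, 1 member was called lower, and over all loci the lower calls rose from 559 to 1059. Scaled to the plastid total, 0 were called in either direction, against 2.94% and 1.43% of all loci. The smallest p-values belonged to ATCG00360, with 40.0, 44.4 and 40.7 CPM in wild type, against 33.4, 33.4 and 30.4 CPM in the mutant, and to ATCG00510, with 38.8, 38.3 and 46.3 CPM against 27.7, 36.0 and 23.9 CPM. Neither pair of groups overlapped, and the log2 fold changes were −0.34 ± 0.10 SE for ATCG00360 (adjusted p = 0.088, edgeR) and −0.48 ± 0.15 SE for ATCG00510 (adjusted p = 0.11, edgeR).

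**Figure D3:**
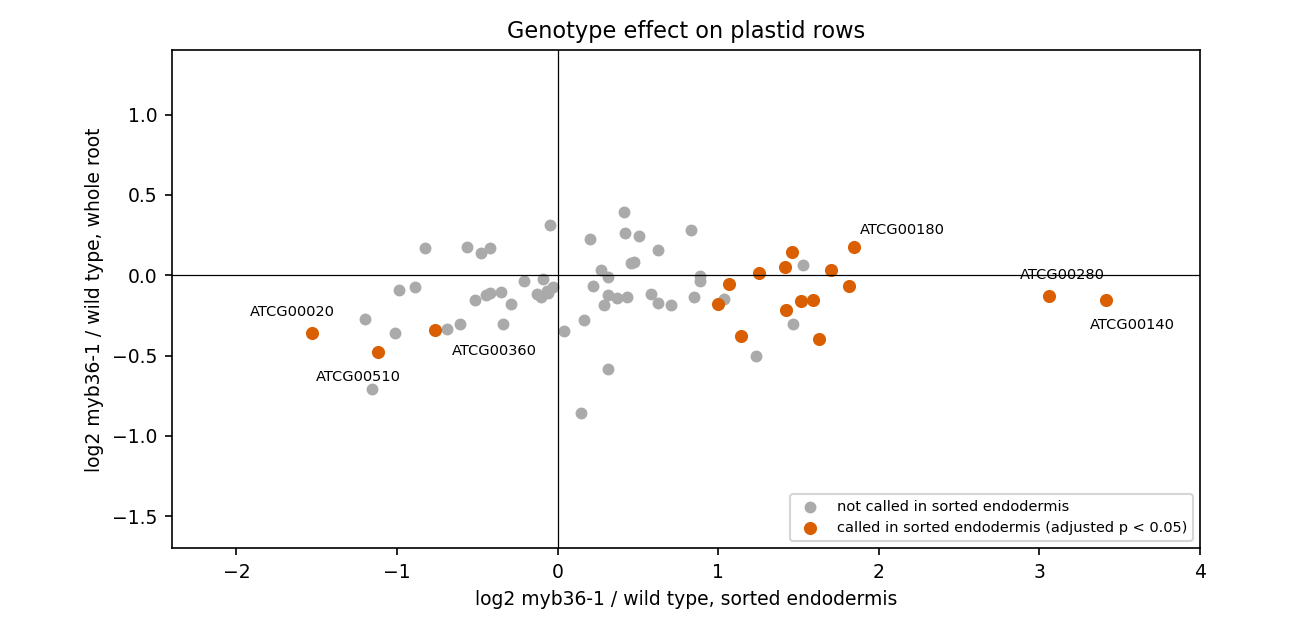
Fitted log2 ratio of myb36-1 over wild type in sorted endodermis (horizontal) and in whole root (vertical) for the 72 plastid rows tested in both; the axes have the same scale, and orange points were called in sorted endodermis. The orange points run from −1.53 to 3.42 along the horizontal axis, and no row was called in whole root.

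The difference between these genotype effects was tested as an interaction over all 12 libraries. Of 76 members tested, 14 (18.4%) had a more positive genotype effect in sorted endodermis than in whole root. The effect was more negative in 1 (1.32%). The background was 13.8% more positive and 14.6% more negative over all 20302 loci tested. The median difference was 0.36 over the members and −0.10 over all loci. The largest differences were those of ATCG00140 (3.55 ± 0.39 SE, adjusted p = 7.0e-05, edgeR), ATCG00280 (3.16 ± 0.36 SE, adjusted p = 7.9e-05) and ATCG00730 (2.00 ± 0.37 SE, adjusted p = 0.0018), and the negative one was that of ATCG00020 (−1.19 ± 0.27 SE, adjusted p = 0.0057). ATCG00730 held 5.75, 4.28 and 5.25 CPM in wild-type sorted endodermis, 16.3, 9.78 and 19.2 in the mutant, 24.2 to 30.8 in wild-type whole root and 19.2 to 21.6 in mutant whole root. Scaled to the plastid total, 13 were more positive and 2 more negative, against 6.53% and 12.5% of all loci. Without mutant sorted replicate 1, 22 members had the more positive effect, and over all loci such calls rose from 2803 to 3507. The more negative effect was called in 4 members without mutant sorted replicate 2 and in 2 without replicate 3. Over all loci the calls of a more negative effect rose from 2955 to 4052 and 3517.

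In wild type, more plastid rows were lower than higher in sorted endodermis against whole root. Of 74 members tested, 36 were called lower (48.6%) and 10 higher (13.5%), against a background of 35.4% lower and 33.4% higher. Scaled to the plastid total, the calls were 22 lower and 18 higher, against 21.1% and 40.4%, and this scaling moved the median of all loci from −0.01 to 0.43. Without wild-type sorted replicate 1 the higher calls numbered 6, and without wild-type whole-root replicate 3 they numbered 5. Over all loci the higher calls went from 6587 to 6143 and 5685 in these fits. The comparison shares its wild-type sorted libraries with the genotype comparison above, so the values of a row in both are not independent. Markers moved as well: 3 of 4 endodermis and 3 of 4 root cap markers were called higher in the sorted cells, and both phloem and both xylem markers lower. Their part in the plastid result was not tested.

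The largest falls in wild-type sorted endodermis against whole root were those of ATCG00280, at 278 to 382 CPM in whole root and 9.23 to 22.7 in sorted cells (log2 fold change −4.12 ± 0.29 SE, adjusted p = 2.2e-06, edgeR), of ATCG00140, at 26.8 to 32.9 against 1.298 to 3.00 CPM (−3.72 ± 0.27 SE, adjusted p = 2.4e-06), and of ATCG00050, at 3.82 to 5.75 against 0.226 to 0.763 CPM (−2.89 ± 0.40 SE, adjusted p = 0.00014). The largest rises were smaller. ATCG00510 went from 38.3 to 46.3 CPM in whole root to 82.3 to 113 in sorted cells (log2 fold change 1.501 ± 0.16 SE, adjusted p = 2.2e-05, edgeR). ATCG00360 went from 40.0 to 44.4 CPM to 65.5 to 87.6 CPM (1.09 ± 0.14 SE, adjusted p = 8.2e-05). ATCG01020 went from 3.12 to 3.58 CPM to 4.06 to 8.35 CPM (1.04 ± 0.28 SE, adjusted p = 0.0086), and it was not called in 1 fit of all 12 libraries (adjusted p = 0.18).

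In myb36-1, plastid rows were called between sorted endodermis and whole root at somewhat smaller shares than all loci. Of 74 members tested, 9 were called lower (12.2%) and 5 higher (6.76%), against a background of 17.3% and 12.3%. Scaled to the plastid total, 6 were lower and 8 higher, against 13.6% and 14.4% of all loci, and the median of the members turned from −0.08 to 0.12. The higher calls numbered 0 without any 1 of the mutant whole-root libraries, 2 without mutant sorted replicate 2 and 12 without mutant sorted replicate 1, and the lower calls numbered 4 and 5 without mutant whole-root replicates 1 and 2. Over all loci the higher calls went from 2384 to 1114, 1085 and 1132 without mutant whole-root replicates 1, 2 and 3. They went to 2821 and 3669 without mutant sorted replicates 2 and 1. The lower calls over all loci went from 3343 to 1928 and 1820 without mutant whole-root replicates 1 and 2. Of the markers, 4 of 4 for endodermis were called higher in the sorted cells, and 3 of 4 for root cap, 4 of 4 for root hair and epidermis and both for phloem lower. Root cap markers were thus lower in sorted cells in the mutant and, for 3 of 4, higher in wild type, and their part in the plastid results was not tested. ATCG00020 fell most, from 1028 to 1409 CPM in whole root to 133 to 189 in sorted cells (log2 fold change −2.70 ± 0.22 SE, adjusted p = 0.00030, edgeR). ATCG01040 went from 26.3 to 34.1 CPM to 9.38 to 13.6 CPM (−1.299 ± 0.23 SE, adjusted p = 0.0060), and ATCG00640 from 13.1 to 20.1 CPM to 5.59 to 8.65 CPM (−1.03 ± 0.32 SE, adjusted p = 0.047, lost in 7 of 14 alternatives). The rises of ATCG00790 (1.05 ± 0.27 SE), ATCG00660 (0.92 ± 0.25 SE) and ATCG00510 (0.83 ± 0.23 SE) were lost in 4, 6 and 6 of 14 alternatives. ATCG00140 was not called here, at 15.0 to 26.9 CPM in sorted cells and 22.7 to 32.4 CPM in whole root (log2 fold change −0.17 ± 0.24 SE, adjusted p = 0.63, edgeR).

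Gene names enter through the authors' deposited tables, which list 89 plastid units per tissue with 1 pooled FPKM per genotype. In the authors' deposited table for sorted endodermis, 62 plastid units had a completed test, 19 had failed and 8 were not tested. Of the 62, 9 records were higher in myb36-1 at a q-value under 0.05 and 0 were lower. The 9 include both copies of the repeated genes RRN16S and RRN23S. Of all units in the authors' deposited table, 13.5% were higher and 3.95% lower. The share of plastid records called higher was thus near that of all units. The FPKM was higher in the mutant for 82.3% of these plastid units and for 65.0% of all units with a completed test in the authors' deposited table. Both copies of repeated genes count in the plastid share, and 11 of the 62 were lower. For the transfer RNA units TRNG.2, TRNL.1, TRNF, TRNM, TRNH, TRNQ, TRNT.2 and TRNP, 1 record each was at 0 FPKM in the mutant only. TRNV.2 and its copy TRNV.3 were at 0 in wild type and 224 in the mutant. None of these passed (q from 0.11 to 0.47, the authors' deposited table). In the authors' deposited table for whole root, 0 of 63 plastid units had a q-value under 0.05, against 2.29% of all units higher and 2.33% lower. Its lowest plastid q-value was 0.17, for a joint unit of psaA, psaB, rps14, rps4, trnfM and ycf3, at 531 FPKM in wild type and 427 in the mutant, and 1 unit had an unadjusted p under 0.05.

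Ribosomal units are given first. In the authors' deposited table for sorted endodermis, RRN16S.1, the small ribosomal RNA at Pt:101012-102502, was at 48.0 FPKM in wild type and 361 in myb36-1 (q = 2.7e-06). RRN23S.1, the large ribosomal RNA at Pt:104691-107500, was at 181 and 816 FPKM in the authors' deposited table (q = 0.048). The second copies of both gave nearly the same values and are not independent. No count row could be named as a ribosomal RNA here, so these FPKM were not set against counts. RPL2.2, ribosomal protein L2 at Pt:152806-154312, was at 47.8 and 335 FPKM in the authors' deposited table (q = 2.0e-08). In the authors' deposited table for whole root, RRN16S.1 was at 2.92 and 4.28 FPKM and RRN23S.1 at 10.2 and 13.1 FPKM. The tables of the tissues were normalized separately, so levels between tissues are set side by side only as listed.

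Other ribosomal protein units did not pass. In the authors' deposited table for sorted endodermis, RPS7.1 was at 205 FPKM in wild type and 448 in the mutant (q = 0.071) and RPL33 at 167 and 342 FPKM (q = 0.20). The joint unit of clpP, rpl20 and rps12 was at 2932 FPKM in wild type and 5777 in the mutant in the authors' deposited table (q = 0.079), whereas the count row of clpP had a fitted log2 fold change below 0 and the row of ribosomal protein L20 was called higher. The FPKM of this unit joins several genes and cannot be split.

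Units of the photosynthetic and NADH dehydrogenase-like complexes follow. In the authors' deposited table for sorted endodermis, PETG, a small subunit of the cytochrome b6f complex at Pt:65998-66111, was at 135 FPKM in wild type and 896 in the mutant (q = 0.026). ORF31, an open reading frame at Pt:65712-65807 next to PETG, was at 958 and 4325 FPKM in the authors' deposited table (q = 0.039). NDHC, a subunit of the NADH dehydrogenase-like complex at Pt:50001-50363, was at 32.1 and 97.8 FPKM in the authors' deposited table (q = 0.035). An unnamed unit at Pt:50729-50886 was at 21.3 and 310 FPKM there (q = 0.00023, the authors' deposited table).

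PSBA, the D1 protein of photosystem II at Pt:383-1444, lay on the other side of the equality line in the same tissue. The authors' deposited table gives it 514 FPKM in wild type and 243 in the mutant in sorted endodermis, which did not pass (q = 0.12). No count row could be named psbA here, so this unit was not set against the counts. In whole root the authors' deposited table gives PSBA 1717 and 1328 FPKM (q = 0.81). PSBI, a small photosystem II subunit, was at 82.3 and 262 FPKM in sorted endodermis (q = 0.44, the authors' deposited table), and PSAJ, a small photosystem I subunit, at 529 and 1097 FPKM (q = 0.23, the authors' deposited table). For the joint units of psbC and psbD, of atpB and atpE, and of rbcL with its neighbours, the test had failed in the authors' deposited table. Their FPKM there were 95.1 and 387 for the psbC and psbD unit, 247 and 650 for atpB and atpE, and 10494 and 14231 for the rbcL unit, in wild type and mutant.

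**Figure D4:**
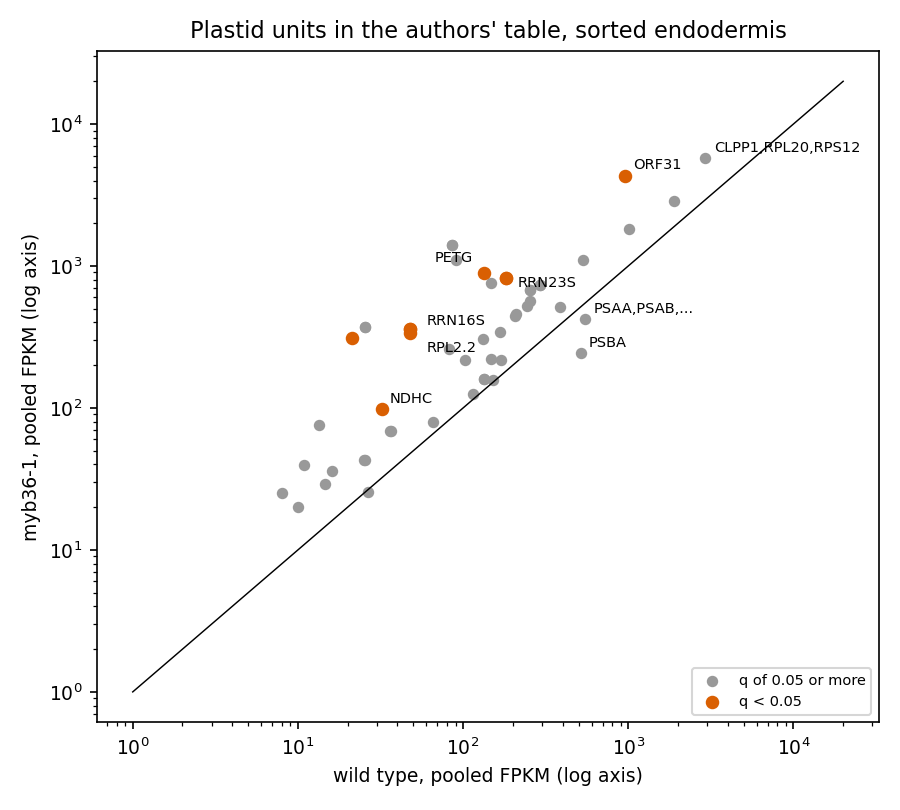
Pooled FPKM of plastid units in wild type (horizontal) and myb36-1 (vertical) in sorted endodermis, from the authors' deposited table, for the 52 units with a completed test and a value above 0 in both genotypes (log axes, line of equality drawn). Orange units have a q-value under 0.05 and all lie above the line, and PSBA and the joint psaA and psaB unit lie below it. Units at 0 FPKM in 1 genotype are not drawn, among them transfer RNA units at 0 in the mutant or in wild type.

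The nuclear genes that serve plastid transcription were read from 2 lists, one of 8 phage-type polymerases and sigma factors and one of 12 polymerase-associated proteins. In sorted endodermis, 4 of 7 tested genes of the first list were called higher in myb36-1 and 0 lower, and the median log2 fold change was 1.54. The second list had 2 of 12 called higher and 0 lower, with a median of 0.46. The background was 15.6% higher and 12.9% lower, and the median over all loci −0.05. Over all nuclear genes of these and 2 further lists for photosynthesis and greening, 9 of 46 tested were called higher and 5 lower, and without any 1 of the wild-type sorted libraries 3 were called higher and 0 or 1 lower. Calls over all loci fell as well without wild-type sorted replicates 1, 2 and 3. They went from 2857 to 1340, 1234 and 1546 higher and from 2368 to 1172, 1002 and 1218 lower.

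SIG1, a sigma factor, held 2.19, 1.52 and 2.09 CPM in wild-type sorted endodermis and 12.4, 20.7 and 8.10 CPM in the mutant, without overlap (log2 fold change 2.85 ± 0.45 SE, adjusted p = 0.0034, edgeR). In whole roots SIG1 was at 28.6 to 30.5 CPM in wild type and 23.6 to 30.3 in the mutant (log2 fold change −0.09 ± 0.11 SE, adjusted p = 0.75, edgeR). Its genotype effect differed between the tissues by 2.92 ± 0.39 SE (adjusted p = 0.00025, edgeR).

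The other polymerase and sigma genes called higher in sorted endodermis, named after their values were seen, were the sigma factor SIG2 (log2 fold change 1.54 ± 0.45 SE, adjusted p = 0.035, edgeR), the phage-type polymerase RPOTmp of mitochondria and plastids (1.76 ± 0.39 SE, adjusted p = 0.012) and the plastid phage-type polymerase RPOTp (0.93 ± 0.22 SE, adjusted p = 0.017). Without any 1 wild-type sorted library 3 nuclear genes of the 4 lists were called higher, and since SIG1 and PAP3 were called in every alternative, at most 1 of SIG2, RPOTmp, RPOTp and PAP8 was called in each case. Calls over all loci also fell in these fits, as given above. RPOTmp held 12.2, 8.82 and 7.90 CPM in wild type, against 15.0, 48.0 and 35.4 in the mutant, with mutant replicate 1 nearest to wild type. SIG3 was at 0.941 CPM on average in wild type and 4.75 in the mutant and did not pass (adjusted p = 0.051, edgeR). PAP3, a polymerase-associated protein, held 8.19, 6.76 and 4.85 CPM in wild type, against 13.0, 31.1 and 36.8 in the mutant (log2 fold change 2.03 ± 0.40 SE, adjusted p = 0.0078, edgeR), and PAP8 was the other called member of its list (1.37 ± 0.31 SE, adjusted p = 0.014).

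In whole roots 1 gene of these lists was called between the genotypes. SIG5, a sigma factor known for its response to light and stress, held 33.7, 33.0 and 35.9 CPM in wild type, against 21.4, 20.4 and 16.3 CPM in the mutant (log2 fold change −0.80 ± 0.12 SE, adjusted p = 0.0043, edgeR). It was not called in 1 fit of all 12 libraries (adjusted p = 0.76). In sorted endodermis SIG5 was at 30.7 to 34.9 CPM in wild type, against at 8.56, 13.6 and 36.1 in the mutant, where the groups overlapped (adjusted p = 0.27, edgeR).

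**Figure D5:**
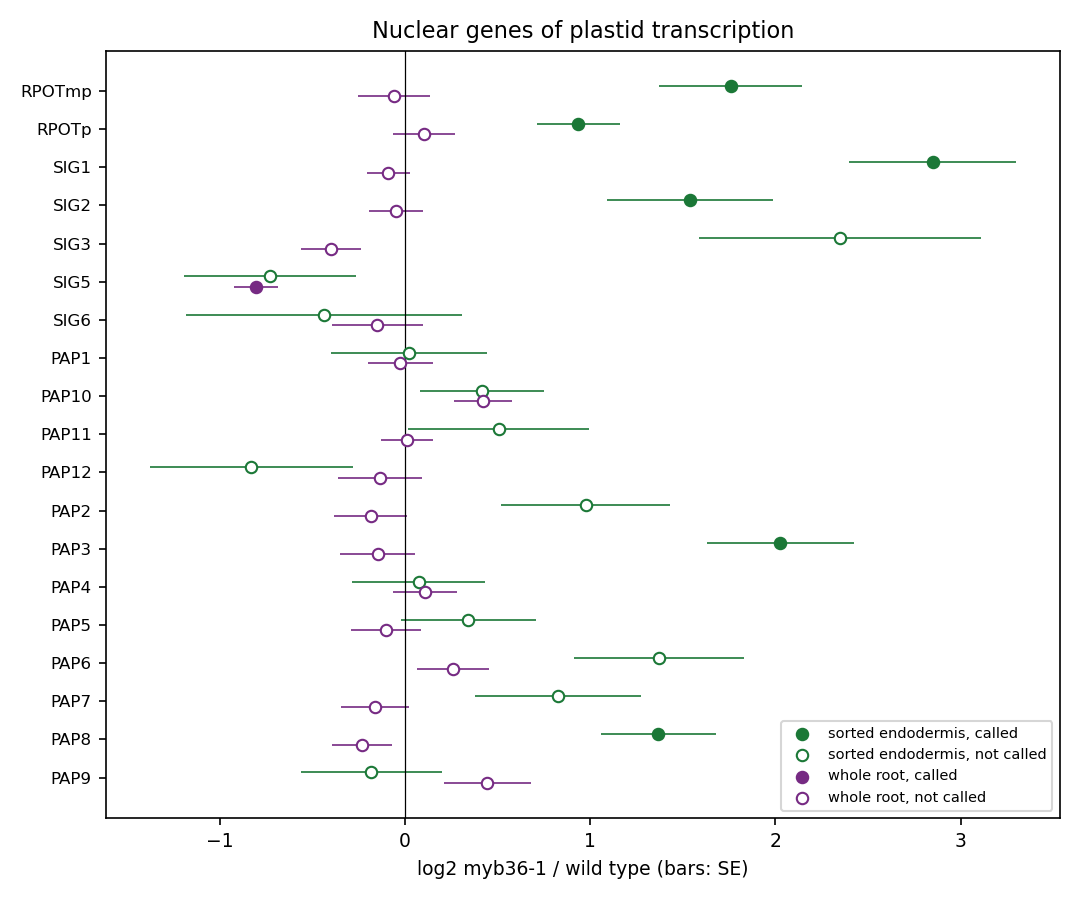
Fitted log2 ratio of myb36-1 over wild type, with its SE as bars, for nuclear polymerase, sigma factor and polymerase-associated genes in sorted endodermis (green) and whole root (purple); filled points were called at an adjusted p under 0.05. Filled green points are SIG1, PAP3, RPOTmp, SIG2, PAP8 and RPOTp, all above 0, and the filled purple point is SIG5, below 0.

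Between sorted endodermis and whole root of wild type, 4 of 7 polymerase and sigma genes were called lower and 0 higher, against 35.4% and 33.4% of all loci. SIG1 changed most, by −3.72 ± 0.18 SE on the log2 scale (adjusted p = 2.9e-07, edgeR). Of the polymerase-associated proteins 5 of 12 were called lower and 4 higher, near those background shares, and PAP8 changed most (−1.52 ± 0.19 SE, adjusted p = 6.3e-05). In myb36-1, of the 55 genes tested over the 4 lists 2 were called higher and 19 lower in sorted cells, against 12.3% and 17.3% of all loci. Without any 1 mutant whole-root library these were 0 higher and 11 or 12 lower, and 8 were higher without mutant sorted replicate 1. Over all loci the higher calls went from 2384 to 1114, 1085 and 1132 without mutant whole-root replicates 1, 2 and 3. The lower calls went from 3343 to 1928, 1820 and 1808. Without mutant sorted replicate 1 the higher calls over all loci rose to 3669. RPOTp was called higher in sorted endodermis (0.88 ± 0.23 SE, adjusted p = 0.026, edgeR) and PAP10 likewise (1.13 ± 0.35 SE, adjusted p = 0.045), and 0 genes of either list were called lower. Both calls were lost under several alternatives, 4 of 14 for RPOTp and 7 of 14 for PAP10.

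Nuclear photosynthesis genes and greening regulators were followed in lists of 35 and 15 genes. The photosynthesis genes summed to 77.1 to 91.2 CPM in wild-type and 54.8 to 68.5 CPM in mutant sorted endodermis, and to 396 to 599 CPM in wild-type and 333 to 370 CPM in mutant whole root. In sorted endodermis 1 of 19 tested was called higher and 3 lower, against 15.6% and 12.9% of all loci. PSAD1, a photosystem I subunit, had 166 counts over the wild-type and 3 over the mutant sorted libraries, a ratio of 25.7 with an exact 95% counting interval of 8.63 to 126 (adjusted p = 0.028, edgeR, up to 0.12 without a wild-type library). In whole root 0 of 27 were called higher and 7 lower, against 3.25% and 2.85% of all loci. Over the 4 nuclear lists 8 were called lower there. This number fell to 1, 1 and 2 without mutant whole-root replicates 1, 2 and 3 and to 3 without wild-type replicate 3. It rose to 9 and 12 without wild-type replicates 1 and 2. Over all loci the lower calls went from 559 to 253, 284 and 255 without mutant replicates 1, 2 and 3. Without wild-type replicates 1, 2 and 3 they were 1059, 524 and 254. LHCB2.1, a light-harvesting protein, held 1.98, 1.35 and 0.573 CPM in wild type, against 0, 0.101 and 0.184 in the mutant (log2 fold change −3.64 ± 0.71 SE, adjusted p = 0.017, edgeR, lost without any 1 mutant whole-root library).

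Between the tissues, in wild type 22 of 28 tested were called lower in sorted endodermis and 1 higher, and in myb36-1 16 of 26 were called lower and 0 higher. Over all loci 35.4% were lower and 33.4% higher in wild type, and 17.3% and 12.3% in myb36-1. RBCS1A, the small subunit of Rubisco, had 0 counts in all 6 sorted libraries and 550 in the wild-type whole-root libraries, at least 173-fold more against a floor of 3 counts summed over the wild-type sorted group. PETC, the Rieske protein of the cytochrome b6f complex, had 0 counts in mutant sorted and 234 in mutant whole-root libraries, at least 36.4-fold more on the same floor.

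Among the greening regulators, GLK2, an activator of photosynthesis genes, held 0.662, 0.288 and 0.339 CPM in wild-type sorted endodermis and 1.64, 2.92 and 3.85 in the mutant (log2 fold change 2.70 ± 0.78 SE, adjusted p = 0.033, edgeR), a call that was lost in 6 of 15 alternatives. In whole root GLK2 was at 14.3 to 17.4 CPM in wild type and 11.8 to 15.0 in the mutant. Of 8 tested members of this list 2 were called higher in mutant sorted endodermis and 2 lower, against 15.6% and 12.9% of all loci. In whole root 0 of 12 passed in either direction, against 3.25% and 2.85%.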

How the data were processed

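RNA sequencing counts of 12 libraries in 4 groups of 3 were used. The authors deposited raw counts per locus, and deposited normalized counts per tissue, used here as a signal only for 1 alternative total. Per the file headers, the authors' deposited gene tables give a pooled FPKM per genotype, its log2 ratio, a p-value and a q-value. The submitters' processing notes name TopHat2, SAMtools, Cufflinks, Cuffdiff, HTSeq and the build TAIR10; tool versions, strand use in counting and the handling of reads with several matches were not found in the sources. The library kit keeps strand, per the labels' protocols.

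The raw counts went into the quasi-likelihood F-test of edgeR (version 4.0.16, R 4.3.3), with TMM scaling, the filterByExpr filter on groups and Benjamini-Hochberg adjustment over every locus tested; a locus was called at an adjusted p under 0.05. A standard error is the size of the log2 fold change divided by the square root of F, and CPM use the total of all loci. DESeq2 1.42.0, limma-voom (limma 3.58.1) and other scalings were alternatives, and the procedure was tested on simulated data. A count of 0 allows 3 counts, and intervals and floors cover counting error only. Totals were compared with exact permutation tests.

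The members, lists and tests were chosen with earlier results of these data known. Rows were named by rule: the 3 largest called rises and falls per comparison, or the 2 smallest p where none was called, and of each nuclear list the called gene with the largest change. A planned split of the rows into functional classes was not made, because names were found for 6 members only. Coordinates of the authors' tables were compared with the TAIR10.1 plastid genome of 154478 bases: 48 of 79 units with 1 name had the start and end of a RefSeq gene, and sequences are credited to that RefSeq genome. The labels do not say whether replicate numbers pair the samples, so the main fits used no block.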

Additional observations from a re-analysis of the deposited data

Results flagged for a closer look

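Results are listed here because the genotype effect (log2 of myb36-1 over wild type) differed between sorted endodermis and whole root in a test of that difference, an interaction term over all 12 libraries with adjusted p under 0.05 by edgeR. Among plastid rows the difference, sorted endodermis minus whole root, was 3.55 for ATCG00140, 3.16 for ATCG00280, 2.00 for ATCG00730, 1.65 for ATCG00180 and −1.19 for ATCG00020.

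Among nuclear genes the difference was 2.96 for GLK2, 2.92 for SIG1, 2.15 for PAP3, −4.17 for PSAD1 and −6.06 for LHCB3. LHCB3, a light-harvesting protein, had 82 counts in wild-type and 0 in mutant sorted libraries, so its fitted difference depends on the prior count and is no bound. Its call was lost in 13 of 19 alternatives, with adjusted p up to 0.088. Groups of 3 libraries are not tested for a single outlying value.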

How the results depend on the processing

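Over the alternatives run, 242 counts and totals stayed within 1.5 times their value or within 1 SD and 46 moved further, and among the named rows and genes 568 results kept their side of the threshold, 70 lost their call and 0 changed sign. In 1 fit of all 12 libraries, 22 plastid rows were called higher and 8 lower in mutant sorted endodermis, of 76 tested. Over all 20302 loci of that fit 4493 were called higher and 4758 lower, against 2857 and 2368 of 18318 in the main fit. In the same fit 3 rows were called higher and 27 lower in wild-type sorted endodermis against whole root, with 4740 and 5734 over all loci. With the plastid total as library size, 18 rows were higher and 22 lower between the wild-type tissues, 8 were higher between the mutant tissues, and 2 had the more negative interaction. Without a filter on low counts, 2 rows were higher between the mutant tissues, as were 1978 of 26788 loci. The cause of these moves was not tested.

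Replicate numbers are shared between groups, and no label says whether an equal number marks a shared day or batch. Deviations of log CPM from the group mean were correlated between libraries (Pearson), so these values are not correlations of the libraries themselves. For same-numbered libraries the correlations ran from −0.001 to 0.173 between the sorted genotypes and from −0.047 to 0.240 between the whole-root genotypes. For different numbers they ran from −0.150 to 0.136 and from −0.269 to 0.152. Between the wild-type tissues they were 0.042 to 0.123 for equal and −0.155 to 0.096 for different numbers. Between the mutant tissues they were −0.072 to −0.040 and −0.014 to 0.067. Whether equal numbers pair the samples is not settled. With the replicate number as a block, plastid calls higher and lower were 13 and 3 in sorted endodermis, 0 and 0 in whole root, 12 and 37 between the wild-type tissues, 1 and 7 between the mutant tissues and 15 and 1 for the interaction; nuclear calls moved to 3 lower in mutant sorted endodermis and 0 higher between the mutant tissues.

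Leaving out each library in turn gave 8 to 18 plastid rows higher and 1 to 5 lower in sorted endodermis, 0 higher and 0 to 1 lower in whole root, 5 to 12 higher and 29 to 39 lower between the wild-type tissues, 0 to 12 higher and 4 to 12 lower between the mutant tissues, and 11 to 22 more positive and 1 to 4 more negative interactions. For the nuclear lists, the ranges were 3 to 11 higher and 0 to 7 lower in sorted endodermis, 0 higher and 1 to 12 lower in whole root, 6 to 10 and 37 to 40 between the wild-type tissues, 0 to 8 and 11 to 25 between the mutant tissues, and 9 to 16 and 3 to 7 for the interaction. Over all loci, the same fits gave 1234 to 3451 higher and 1002 to 3566 lower in sorted endodermis, and 339 to 817 and 253 to 1059 in whole root. Between the wild-type tissues they gave 5685 to 6489 and 6273 to 6927, and between the mutant tissues 1085 to 3669 and 1808 to 4888. For the interaction they gave 2087 to 3507 and 2180 to 4373. The log2 ratio of the plastid total ranged from −0.03 to 0.36 between genotypes in sorted endodermis, so its sign is not settled.

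The alternatives without ribosomal and transfer RNA rows or outside the inverted repeat, and the shares by functional class, were not run, since most rows could not be named. Rows near the floor of 3 counts, which is 0.124 to 0.412 CPM per library, carry little information.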
